A study of Mus musculus with 10 samples.

Results

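Homeobox and developmental transcription factor genes were looked up in lists of sites enriched for ARID2 in mouse spermatogenic cells. The lists are given as transcription start sites (TSSs), and ARID2 is a subunit of the PBAF chromatin remodelling complex. The members were all protein-coding genes of the RefSeq annotation whose symbol marks them as Fox, Hox, Sox, Nkx, Tbx, Pax, Lhx, Dlx, Irx, Gata or Six-family genes by the name of the family and the letter or number of the gene. They numbered 171 of 21774 protein-coding genes and fell into 11 families, with 46 Fox, 39 Hox, 18 Sox, 14 Nkx, 13 Tbx, 9 Pax and 8 Lhx genes and 6 in each of the other families. A further Sox gene was left out by the rule and is not analysed here. The symbol rule also took Foxred1 and Foxred2, which encode oxidoreductases and not forkhead proteins.

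CUT&RUN, in which a nuclease tethered by an antibody cuts out the bound chromatin, was done on CD1 mice at postnatal day 28 (P28) and at P28.5. All mice had received WIN 18,446, which blocks retinoic acid synthesis, by gavage from P1 to P10 (100 mM, 100 µg per g body weight) and injected under the skin with 10 µl of retinoic acid (10 µg/µl) at P11, which starts spermatogenesis in step. Each age had 2 ARID2 libraries, 2 libraries for BRG1, the ATPase of the same remodelling complex, and 1 control library without primary antibody. The authors clustered the TSSs by averaged ARID2 signal over the control. The deposited lists give the sites of the enriched cluster, called cluster-1, as a position and a gene symbol. Signal, depth and the spread between replicates are unknown from them. Where a member's row fell at an annotated transcript end, it was the lower-coordinate end, which is the 3′ end on the minus strand. With own rows within 500 bp of a 5′ end, 23.6% of plus-strand and 2.78% of minus-strand genes were listed at P28. At P28.5 it was 20.1% and 2.51%. Starts of minus-strand genes, among them 84 members, were thus rarely in the lists, and absence does not show that ARID2 was lacking there. The cells were a filtered suspension of tubule cells enriched for spermatocytes, in which fewer cells of a type with an ARID2-bound site and less ARID2 per cell cannot be told apart.

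Hox proteins carry a homeodomain and set position along the body axis, and their genes lie in 4 clusters that Polycomb proteins keep repressed in most cells outside their domains. Fox, Sox, Tbx, Pax and Gata proteins bind DNA through forkhead, HMG-box, T-box, paired and zinc finger domains, and Nkx, Dlx, Irx, Lhx and Six-family proteins through homeodomains of their own classes. Most of these genes have promoters rich in CpG and are active in restricted lineages, while several Fox genes are expressed widely, and in the testis Foxo1 is known from spermatogonia and Sox9, Sox8 and Gata4 from Sertoli cells.

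The promoters below show what the listed members look like at their starts. Each is read 5′ to 3′ on the strand of the gene, from 250 bases before to 50 bases after the start in the RefSeq promoter table of GRCm38.p6, the assembly behind mm10, and capitals mark CpG dinucleotides. Foxo1, on the plus strand at chr3:52268087-52268386, was the member listed at both ages. Foxj3 (chr4:119539411-119539710, plus strand) and Foxk2 (chr11:121259737-121260036, plus strand) were listed at P28.5, and they are printed by a choice made after the values were seen.
Foxo1: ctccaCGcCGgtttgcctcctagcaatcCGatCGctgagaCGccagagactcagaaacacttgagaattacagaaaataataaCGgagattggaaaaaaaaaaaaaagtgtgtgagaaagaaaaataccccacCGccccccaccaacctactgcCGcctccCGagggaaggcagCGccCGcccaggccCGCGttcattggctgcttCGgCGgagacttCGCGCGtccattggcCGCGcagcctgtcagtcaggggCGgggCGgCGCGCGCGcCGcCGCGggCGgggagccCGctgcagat
Foxj3: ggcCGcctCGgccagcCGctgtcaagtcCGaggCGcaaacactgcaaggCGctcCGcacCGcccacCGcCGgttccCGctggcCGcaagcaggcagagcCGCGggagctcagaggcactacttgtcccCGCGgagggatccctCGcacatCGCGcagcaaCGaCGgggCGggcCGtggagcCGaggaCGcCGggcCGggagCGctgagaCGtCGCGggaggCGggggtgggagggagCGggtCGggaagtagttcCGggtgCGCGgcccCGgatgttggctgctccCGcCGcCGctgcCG
Foxk2: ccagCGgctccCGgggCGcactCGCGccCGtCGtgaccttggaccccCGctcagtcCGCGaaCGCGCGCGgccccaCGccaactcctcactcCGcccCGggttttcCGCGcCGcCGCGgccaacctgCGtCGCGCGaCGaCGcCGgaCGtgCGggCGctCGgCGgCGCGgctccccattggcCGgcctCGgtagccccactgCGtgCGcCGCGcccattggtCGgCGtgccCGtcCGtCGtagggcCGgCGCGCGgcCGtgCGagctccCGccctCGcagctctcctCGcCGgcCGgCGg
These windows held 31, 42 and 59 CpG dinucleotides, against a median of 13 over the promoters of protein-coding genes in the table, 24 over those of all genes with an own start at P28.5, 22 over 9 promoters of members with an own start at either age, and 17 over those of unlisted members. The listed position coincided with the start of the table, after base 250 of the window, in all 3.

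Promoters of members listed at P28 alone were also picked after their values were seen. Six6 (chr12:72939632-72939931), Tbx6 (chr7:126781233-126781532) and Hoxd10 (chr2:74691641-74691940) all lie on the plus strand and had their listed position at the start of the table.
Six6: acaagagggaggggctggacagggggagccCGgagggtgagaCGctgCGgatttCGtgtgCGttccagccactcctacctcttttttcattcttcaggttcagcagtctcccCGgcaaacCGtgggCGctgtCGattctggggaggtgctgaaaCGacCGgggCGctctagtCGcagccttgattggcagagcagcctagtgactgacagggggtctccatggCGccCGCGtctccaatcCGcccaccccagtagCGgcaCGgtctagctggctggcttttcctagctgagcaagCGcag
Tbx6: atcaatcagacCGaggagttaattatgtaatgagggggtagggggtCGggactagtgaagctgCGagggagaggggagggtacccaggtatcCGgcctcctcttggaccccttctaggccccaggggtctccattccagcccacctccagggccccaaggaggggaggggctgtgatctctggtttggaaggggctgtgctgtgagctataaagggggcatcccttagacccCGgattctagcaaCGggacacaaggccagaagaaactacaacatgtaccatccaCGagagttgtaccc
Hoxd10: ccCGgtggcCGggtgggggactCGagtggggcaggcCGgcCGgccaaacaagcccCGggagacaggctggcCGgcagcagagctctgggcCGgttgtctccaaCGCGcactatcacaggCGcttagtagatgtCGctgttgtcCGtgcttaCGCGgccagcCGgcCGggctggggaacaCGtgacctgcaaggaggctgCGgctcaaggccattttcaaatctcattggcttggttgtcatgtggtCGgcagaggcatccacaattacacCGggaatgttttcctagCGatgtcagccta
They held 20, 7 and 22 CpG dinucleotides. Tbx6 had a TATAAA match, as did 8.04% of the members with a promoter in the table.

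The third set holds the plus-strand members with the highest CpG ratio among those with a promoter in the table, no row at either age and no listed position within 2000 bp, which were Foxc1 (chr13:31806396-31806695), Foxl2 (chr9:98955357-98955656) and Hoxd13 (chr2:74667975-74668274). The ratio divides the CpG count by the count that base composition alone would give, in a window of 500 bp each way from the 5′ end.
Foxc1: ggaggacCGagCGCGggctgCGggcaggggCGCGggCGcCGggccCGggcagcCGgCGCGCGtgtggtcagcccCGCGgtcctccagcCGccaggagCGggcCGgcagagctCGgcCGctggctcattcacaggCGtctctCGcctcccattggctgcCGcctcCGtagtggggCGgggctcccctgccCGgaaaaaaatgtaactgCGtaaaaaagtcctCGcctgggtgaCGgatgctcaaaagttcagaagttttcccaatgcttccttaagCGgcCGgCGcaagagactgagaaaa
Foxl2: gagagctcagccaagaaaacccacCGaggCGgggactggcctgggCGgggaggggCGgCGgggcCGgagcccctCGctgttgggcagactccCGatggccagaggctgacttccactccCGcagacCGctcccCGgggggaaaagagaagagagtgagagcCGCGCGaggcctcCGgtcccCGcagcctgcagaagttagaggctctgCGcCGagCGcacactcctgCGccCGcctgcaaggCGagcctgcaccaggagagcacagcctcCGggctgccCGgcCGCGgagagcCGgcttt
Hoxd13: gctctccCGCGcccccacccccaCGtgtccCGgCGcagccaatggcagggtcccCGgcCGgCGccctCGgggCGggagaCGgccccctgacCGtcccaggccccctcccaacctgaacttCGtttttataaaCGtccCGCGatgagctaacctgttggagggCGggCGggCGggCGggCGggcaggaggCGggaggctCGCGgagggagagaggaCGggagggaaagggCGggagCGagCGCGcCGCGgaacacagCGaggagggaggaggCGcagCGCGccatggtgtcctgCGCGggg
With 32, 27 and 37 CpG dinucleotides, these unlisted promoters were within the range of the listed ones.

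At P28, 17 of the 171 members were named in cluster-1, which is 9.94% (95% Wilson interval 6.30% to 15.3%), beside 16.8% of all protein-coding genes. At P28.5 it was 5 members, or 2.92% (interval 1.26% to 6.66%), beside 11.6% of all. Both shares lay under the background, and both intervals ended under it. These and all later intervals cover counting error only, genes are not replicates of the experiment, and the lists allow no test over animals. By families, 7 of the 11 had a listed gene at P28, and 1 of the 11, Fox, had any at P28.5.

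By name, 5 of 46 Fox genes were listed at each age (10.9%, interval 4.73% to 23.0%). Counted by own rows within 500 bp it was 3 of 46 at P28 (6.52%, interval 2.24% to 17.5%) and 5 at P28.5. For the Hox genes the counts were 2 of 39 at P28 (5.13%, interval 1.42% to 16.9%) and 0 at P28.5, which allows up to 7.69%. Nkx genes had 4 of 14 at P28 (28.6%, interval 11.7% to 54.6%), Six-family genes 2 of 6 (33.3%, interval 9.68% to 70.0%) and Tbx genes 2 of 13 (15.4%, interval 4.33% to 42.2%). In Sox, 1 of 18 genes was listed at P28 (5.56%, interval 0.988% to 25.8%), and in Gata 1 of 6 (16.7%, interval 3.01% to 56.4%). With own rows within 500 bp, where the background at P28 is 13.2%, Nkx had 2 of 14 (14.3%, interval 4.01% to 39.9%), Tbx 1 of 13 (7.69%, interval 1.37% to 33.3%), and Sox and Gata 0, while Hox and the Six-family genes kept their counts. No Dlx, Irx, Lhx or Pax gene was named at either age, and with 6 to 9 genes a family a count of 0 allows shares of up to 33.3% to 50%. At P28 the interval of every family with a listed gene included the background of both strands together, that of Hox ending at 16.9%. Within strands, 2 of 28 plus-strand Hox genes were listed (7.14%, interval 1.98% to 22.6%), under the 26.0% of plus-strand genes. Of the minus-strand Nkx genes 3 of 10 were (30.0%, interval 10.8% to 60.3%), above the 7.61% of minus-strand genes. The other intervals of these families by strand included the share of their strand.

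**Figure D1:**
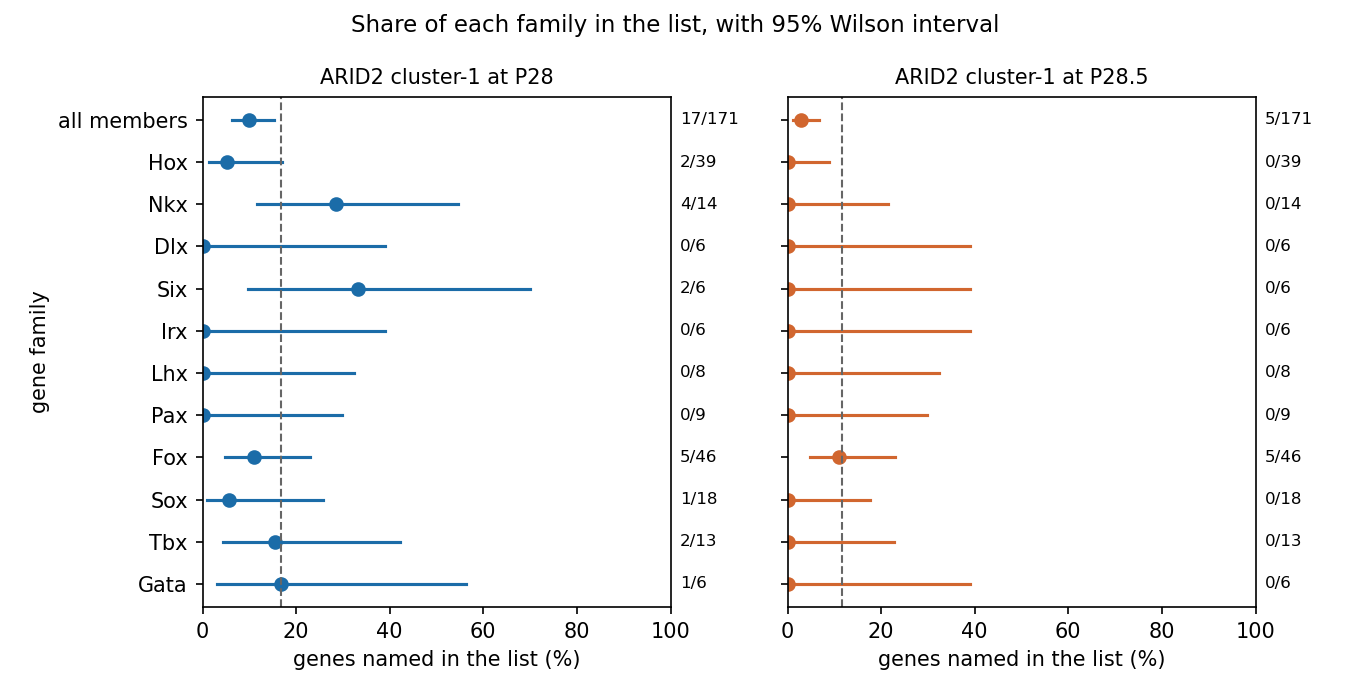
Share of the genes of each family that cluster-1 named at P28 (left) and P28.5 (right), in percent; points are shares, bars 95% Wilson intervals, dashed lines the share of all protein-coding genes, and the numbers at the right margin give listed genes over all genes. At P28.5 Fox, with 5 of 46, is the family whose point is off 0.

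By name, the members at the 2 ages were largely different genes. Counted through a position of any name within 2000 bp of a 5′ end, 4 members were reached at both ages, of 16 at P28 and 8 at P28.5. Of 21 members named at either age, 1 was in both lists, 16 in that of P28 and not in the later one, and 4 in that of P28.5 and not in the earlier one. The shared gene makes up 5.88% of the members named at P28 and 20% of the members named at P28.5, where shared genes make up 50.5% and 73.1% of the lists over all protein-coding genes. Of all protein-coding genes 8.48% were shared, and of the members 0.585% (interval 0.103% to 3.24%).

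A stricter count took a member as listed at its own start when a row of its name lay within 500 bp of one of its annotated 5′ ends. It gave 10 members at P28 (5.85%, interval 3.21% to 10.4%), beside 13.2% of all protein-coding genes, and 5 at P28.5, beside 11.3% of all. Of those 10, 1 had a position of any name within 2000 bp listed at P28.5 (10.0%, interval 1.79% to 40.4%), whereas 62.5% of all 2869 genes with an own start at P28 did. Of the 5 at P28.5, 1 had such a position at P28 (20%, interval 3.62% to 62.4%), against 73.1% of 2461 genes. In both directions that 1 was Foxo1. Among genes in the highest of 5 quintiles of CpG ratio over all protein-coding genes, the shares over all genes were 78.4% from P28 to P28.5 and 73.7% from P28.5 to P28, and the members gave 1 of 4 and 1 of 5. For 7 of the 10 members with an own start at P28, the nearest listed position at P28.5 was more than 100000 bp away (70.0%), which held for 22.5% of all genes with an own start at P28.

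**Figure D2:**
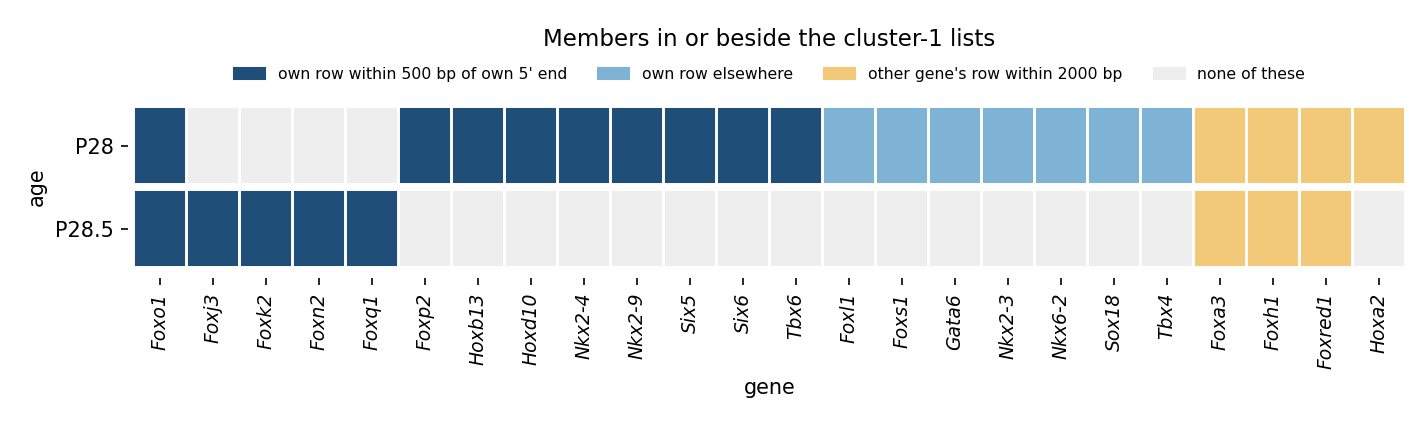
Members (columns) with a row of their own name, or with another gene's row near their start, at P28 and P28.5 (rows). Foxo1 is dark at both ages and 4 Fox genes are dark at P28.5 alone; 1 member named at P28 is not drawn.

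Foxo1 encodes a forkhead factor that insulin and AKT signalling keep out of the nucleus, and it is known for maintaining spermatogonial stem cells. At each age it had 1 row, at 52268337 on chromosome 3, its 1 annotated 5′ end. Its CpG ratio was 1.06. The other Foxo genes had no row, and the nearest listed position was 225359 bp from Foxo3 and 277766 bp from Foxo6 at P28. Foxo3 and Foxo6 lie on the minus strand, where 2.78% of genes had an own start listed at P28 and 2.51% at P28.5. Foxo4 lies on the X chromosome, where 0 of 963 genes were named at P28 and 2 at P28.5. The lists thus rarely held starts of these kinds.

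Foxk2, a widely expressed forkhead factor that binds the BAP1 deubiquitinase complex, had 9 rows at P28.5, more than any other member. They covered 2 positions, 121259987 with 1 row and 121259992 with 8, and these are both of its annotated 5′ ends. At P28 the nearest listed position was 22751 bp away and named Narf. Its paralogue Foxk1 was unlisted at both ages, with a CpG ratio of 0.996 against 1.17 for Foxk2, and with the nearest listed position 204408 bp off.

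Foxj3 had 2 rows at P28.5, both at 119539661 on chromosome 4, 1 of its 3 annotated 5′ ends. At P28 the nearest listed position was 191449 bp away. Foxj1, the regulator of motile cilia, on the minus strand, and Foxj2, on the plus strand, had no row. Foxn2 had 1 row at P28.5, at 88440951 on chromosome 17, which is 247 bp inside its gene and equals no annotated transcript end. Foxq1, known from hair and epithelia, had 1 row at P28.5 at 31558170 on chromosome 13, its 5′ end. At P28 the nearest listed position was 1243860 bp away. Foxq1 shares its neighbourhood with Foxf2 and Foxc1, which had no row, and for both the nearest listed position at P28.5 was that of Foxq1, 67646 bp from Foxf2 and 248476 bp from Foxc1. The 5 Fox genes at P28.5 were thus listed at or near their own starts, all lie on the plus strand, and all were in the highest quintile of CpG ratio. Of all protein-coding genes listed at P28.5, 87.7% lie on the plus strand. Of all those with an own start at that age, 47.1% were in the highest quintile.

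The Fox genes with an own start at P28 included Foxo1 and Foxp2. Foxp2, known from the circuits of vocal learning, had 2 rows at 14901349 and 14901678 on chromosome 6, 2 of its 3 annotated 5′ ends, and the nearest listed position at P28.5 was 2993637 bp off, farther than for any other listed member. Its paralogues Foxp1, Foxp3 and Foxp4 had no row. Foxp1 and Foxp4 lie on the minus strand, where 2.78% of genes had an own start listed at P28. Foxp3 lies on the X chromosome, where 0 of 963 genes were named at P28, so none of the 3 is alike Foxp2 in strand and chromosome.

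In the Six-family, Six5 and Six6 were listed at P28. Six6, a factor of the eye and pituitary, had 1 row at its 5′ end, 72939882 on chromosome 12. Its neighbour Six4, on the minus strand, had no row, and the nearest listed position was 166379 bp from it at P28. Six5 had 1 row at 19095419 on chromosome 7, 1 bp from the second of its 2 annotated 5′ ends. At P28.5 a position named Dmwd lay 18344 bp from it, the shortest such distance among the members listed at P28 alone. Tbx6, which specifies paraxial mesoderm, had 1 row at its 5′ end, 126781483 on chromosome 7, and the lowest CpG ratio among the listed members, at 0.330.

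Over all protein-coding genes named at P28, 78.4% had a row within 500 bp of their own 5′ end, and at P28.5 97.3% did. Among the members it was 10 of 17 at P28 (58.8%) and 5 of 5 at P28.5. Of the 10 at P28, 6 had a row exactly at an own 5′ end. The 7 others at P28 were Foxl1, Foxs1, Gata6, Nkx2-3, Nkx6-2, Sox18 and Tbx4, and their rows lay from 1577 to 39231 bp away from their own 5′ ends.

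Foxs1, a forkhead gene of blood vessel mural cells, had 8 rows at P28, at 152940995 and 152940997 on chromosome 2. Both positions are the lower, 3′ ends of transcripts of the minus-strand gene Dusp15, and lie 7787 and 7789 bp upstream of Foxs1. Foxl1, which marks mesenchymal cells under the gut epithelium, had 1 row 39231 bp downstream of its start, at the 3′ end of the long noncoding RNA Gm33633. That row was also the listed position nearest to the neighbouring Foxc2, at 50745 bp, and Foxf1, at 82530 bp. For Nkx2-3, a factor of spleen and gut vessels, the row lay 3248 bp upstream at the 3′ end of the noncoding Gm20467. Gata6, a regulator of endoderm and heart, had its row 2581 bp upstream, at the 3′ end of the antisense RNA Gata6os. Sox18, a factor of endothelial and lymphatic development, had 1 row at 181669837 on chromosome 2, its own 3′ end and 1803 bp from its start. Nkx6-2, known from the neural tube and glia, had 2 rows, 1577 and 3421 bp from its start, each at an own 3′ end. Tbx4, a hindlimb factor, had 1 row 2723 bp inside its gene, at no annotated end. None of these 7 genes had a row at P28.5.

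**Figure D3:**
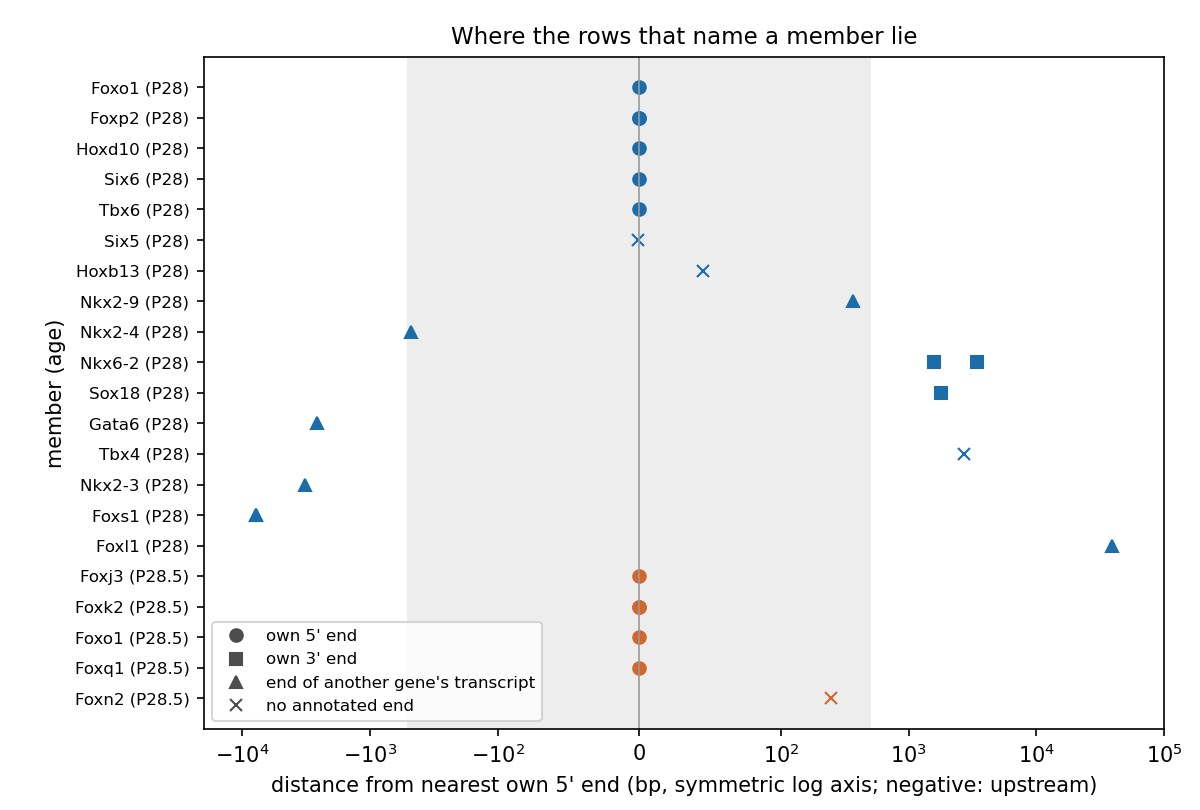
Signed distance in bp (symmetric log axis) from each listed position that names a member to the nearest 5′ end of that member, in blue for P28 and orange for P28.5; marker shapes give the annotated transcript end at that position and the shaded band is 500 bp on either side. The positions of 1 member named at P28 are not drawn. All P28.5 positions lie in the band, while those of 7 members at P28 lie outside it, from 1577 to 39231 bp away.

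In the Nkx family, the rows of all 4 genes listed at P28 were at ends of other transcripts or at an own 3′ end. Nkx2-4, a factor of the hypothalamus, had 3 rows at 147085914 on chromosome 2, 475 bp upstream, which is the 5′ end of the plus-strand noncoding RNA Gm34889. Nkx2-9, of the ventral neural tube, had 1 row at 56612921 on chromosome 12, 363 bp inside the gene, the 5′ end of the plus-strand noncoding RNA Gm26973. These were the minus-strand members counted among the 10 own starts at P28. The Nkx2-9 position was also the listed one nearest to the neighbouring Nkx2-1, 76013 bp away, and Pax9, 78772 bp away.

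The 39 Hox genes lie in 4 clusters. HoxB (chromosome 11, 96194316 to 96368254), HoxC (chromosome 15, 102921131 to 103036856) and HoxD (chromosome 2, 74668225 to 74765142) hold 10, 9 and 9 Hox genes on the plus strand, and HoxA (chromosome 6, 52155367 to 52260880) holds 11 on the minus strand. At P28 cluster-1 had 2 positions in HoxA, 1 in HoxB, 0 in HoxC and 1 in HoxD. The position in HoxB was that of Hoxb13, a posterior gene known from the prostate, at 96194361, 45 bp after its 5′ end. In HoxD it was that of Hoxd10, known from hindlimb motor neurons, at 74691891, 1 of its 2 annotated 5′ ends. Both positions in HoxA carried the names of antisense noncoding RNAs, Hoxaas2 at 52165674 and Hoxaas3 at 52201124. At P28.5 no position in any of the 4 clusters was listed. Of 100 distinct lower transcript ends within the clusters, 3 (3%) were listed at P28, beside 5.02% of such ends in the whole annotation, and 0 at P28.5, beside 3.48%.

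The surroundings of the Hox genes also differed between the ages. At P28 the nearest listed position of any name lay within 100000 bp for 28 of the 39 Hox genes (71.8%), beside 52.7% of all protein-coding genes, and at P28.5 for 1 of 39 (2.56%), beside 41.2% of all. That 1 was Hoxd1, which had a position named Mtx2 62832 bp away at both ages. The median distance for the Hox genes was 59756 bp at P28 and 412513 bp at P28.5. Genes of a cluster share their neighbourhood, so that the 39 distances stand for 4 regions. Over all 171 members the median distance was 100488 bp at P28, beside 87872 bp for all protein-coding genes, and 289135 bp at P28.5, beside 158550 bp.

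**Figure D4:**
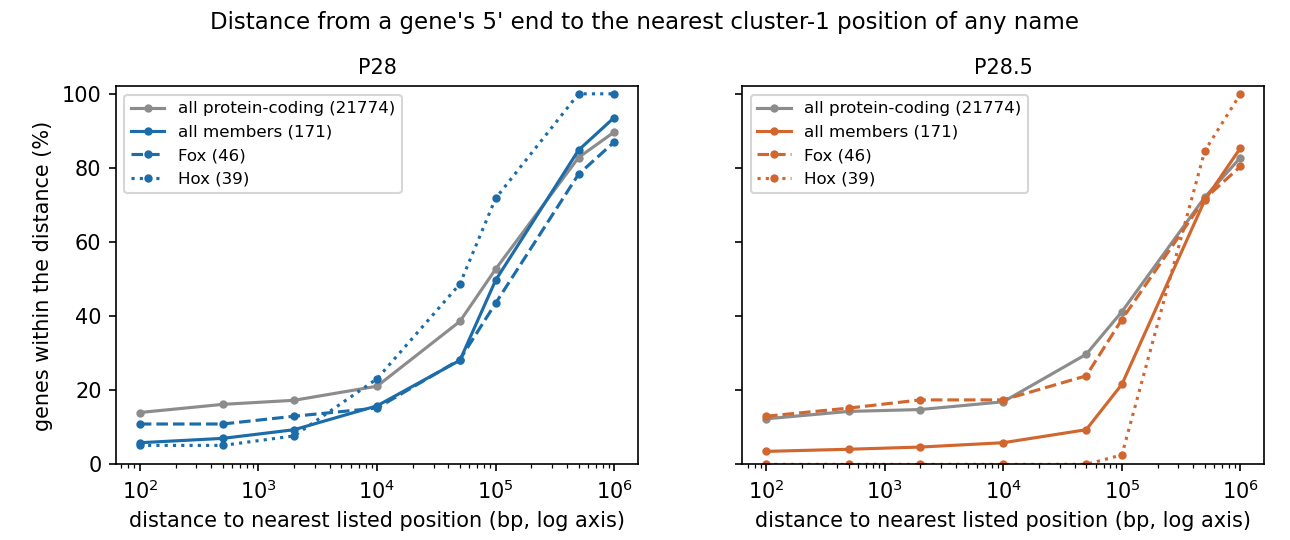
Percent of genes (y axis) whose 5′ end lies within a given distance in bp (x axis, log scale) of a cluster-1 position of any name, at P28 (left) and P28.5 (right), for all protein-coding genes, all members, Fox and Hox. At P28.5 the Fox genes, with 17.4% within 2000 bp, are near the 14.8% of all genes, while 0 of 39 Hox genes are within 50000 bp.

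Positions of other genes fell near some members that had no row of their own. When a gene counted through a position of any name up to 2000 bp from a 5′ end, 16 members were reached at P28 (9.36%, interval 5.84% to 14.7%), beside 17.3% of all genes, and 8 at P28.5 (4.68%, interval 2.39% to 8.96%), beside 14.8% of all. Foxh1, a partner of SMAD proteins in Nodal signalling, had 3 positions of the divergent gene Ppp1r16a 6 to 66 bp from its start at both ages. Foxa3, a factor of the liver, had 3 positions of Sympk 813 to 878 bp from its start at both ages. Foxred1, the complex I assembly factor, had 1 position of Srpr 32 bp from its start at both ages. Hoxa2 had the Hoxaas2 position, 843 bp away, at P28. All 4 are minus-strand genes, and at these pairs of starts the lists do not separate the member from its neighbour. Counted this way, Foxo1, Foxh1, Foxa3 and Foxred1 were reached at both ages.

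Strand and CpG content go with membership of the lists over all genes, so the members were set beside genes alike in both. On the plus strand, 12 of 87 members were listed at P28 (13.8%, interval 8.07% to 22.6%), beside 26.0% of plus-strand genes, and 5 of 87 at P28.5 (5.75%, interval 2.48% to 12.8%), beside 20.4%. On the minus strand it was 5 of 84 at P28 (5.95%, interval 2.57% to 13.2%), beside 7.61% of minus-strand genes, and 0 of 84 at P28.5, which allows up to 3.57%, beside 2.86%. The members had CpG-rich promoters, with a median ratio of 0.679 against 0.516 for all protein-coding genes, and 48 of them (28.1%) were in the highest CpG quintile.

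Among plus-strand genes in the highest CpG quintile, 3 of 27 members were listed at P28 (11.1%, interval 3.85% to 28.1%), whereas 46.3% of all such genes were. At P28.5, 5 of 27 were listed (18.5%, interval 8.18% to 36.7%), whereas 47.2% of all such genes were. In the next CpG quintile the plus-strand members gave 3 of 25 at P28 (12%, interval 4.17% to 30.0%) beside 39.5%, and 0 of 25 at P28.5, which allows 12%, beside 33.2%. In the middle CpG quintile they gave 5 of 24 at P28 (20.8%, interval 9.24% to 40.5%), beside 21.4%. At P28.5 they gave 0 of 24, which allows 12.5%, beside 12.1%. By name the pooled members thus stood under the other genes in the 2 upper quintiles at both ages. Of the 27 members in the highest quintile 15 are Fox genes, a family singled out here after the values were seen, and all 5 listed at P28.5 are among these 15 (33.3%, interval 15.2% to 58.3%, which holds the 47.2%), while 2 of them were listed at P28 (13.3%, interval 3.74% to 37.9%, which ends under the 46.3%). In the middle one the count at P28 depends on the rule, and with own rows within 500 bp it was 2 of 24 (8.33%, interval 2.32% to 25.8%) beside 18.1%. With the CpG ratio taken over 2000 bp on either side, the highest quintile held more members, and it gave 8 of 45 at P28 (17.8%, interval 9.29% to 31.3%) beside 44%, and 5 of 45 at P28.5 (11.1%, interval 4.84% to 23.5%) beside 42.8%. The order of the ages among the members thus changes with the window, while both shares stay under those of all such genes.

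**Figure D5:**
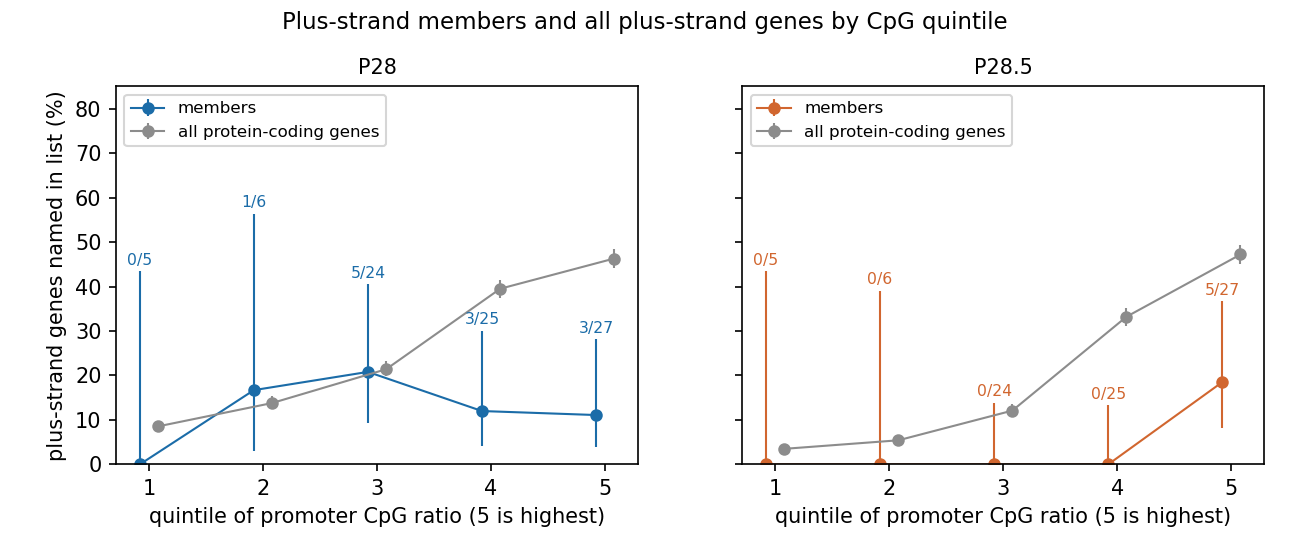
Share in percent of plus-strand genes named in cluster-1, by quintiles of the CpG ratio, at P28 (left) and P28.5 (right), for members (coloured, with counts) and all protein-coding genes (grey); bars are 95% Wilson intervals. In the highest CpG quintile the members stand at 11.1% and 18.5%, and all genes at 46.3% and 47.2%, with the ratio over 500 bp each way.

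Some members known from the testis or from dividing cells had no row at either age, like most genes, since 16.8% and 11.6% of all protein-coding genes were listed. Sox9, Sox8 and Gata4, regulators of Sertoli cells, were among them, and the nearest listed positions at P28 were 901968, 136825 and 164682 bp away. No row was found either for Lhx9 and Lhx2, for Foxm1, which drives mitotic gene expression, for Foxl2, the ovarian factor, and for Sox5, Sox6, Pax8 and Tbx2. Sox8, Gata4, Lhx9, Sox5, Sox6 and Pax8 are minus-strand genes. Of all minus-strand genes, 7.61% were named at P28 and 2.86% at the later age, and 2.78% and 2.51% had an own start listed. Being unlisted therefore says little about ARID2 at these members. Sox9, Lhx2, Foxm1, Foxl2 and Tbx2 are plus-strand genes, of which 26.0% and 20.4% were named. For Tbx2 the nearest listed position at P28 was that of Tbx4, 56475 bp away. Foxm1 had a CpG ratio of 0.851 and its nearest listed position at P28 was 574910 bp off. The 6 X-linked members, Foxo4, Foxp3, Foxr2, Gata1, Sox3 and Tbx22, were all unlisted, on a chromosome where 0 of 963 protein-coding genes were named at P28 and 2 at P28.5. The nearest listed X position was at least 1311299 bp from any of them at P28.5, a distance reached by Foxr2.

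Partners and related genes were counted in the same way. Of 11 genes for Hox cofactors of the Pbx, Meis, Pknox and Tgif families, 3 were listed at each age (27.3%, interval 9.75% to 56.6%), and they were Pbx4, Pknox1 and Tgif2 at both. Each had a row within 500 bp of its own start. The background of 16.8% and 11.6% lies inside the interval, and all 3 are among the 5 of these genes on the plus strand, where 26.0% and 20.4% of genes were listed. Of 58 other homeobox genes such as Msx, Otx and Cdx, 5 were listed at P28 (8.62%, interval 3.74% to 18.6%), En1, Msx2 and Prox1 among them. At P28.5 the count was 1 of 58 (1.72%, interval 0.305% to 9.14%), Hmx1, which was not among those at P28. With own rows within 500 bp, 2 of the 58 remained at P28, where the background was 13.2%, and 1 at P28.5.

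Polycomb genes, whose products repress many of the members in other tissues, were listed in 8 of 33 cases at P28 (24.2%, interval 12.8% to 41.0%) and in 9 of 33 at P28.5 (27.3%, interval 15.1% to 44.2%), among them Bmi1 at both ages. All of these had a row within 500 bp of their own start. The background of 16.8% lies inside the interval at P28, and that of 11.6% below it at P28.5. By strand, 7 of 13 plus-strand Polycomb genes were listed at P28 and 8 of 13 at P28.5, beside 26.0% and 20.4% of plus-strand genes, and 1 of the remaining 20 at each age. The products of the trithorax and COMPASS genes oppose Polycomb, and most are parts of complexes that methylate histone H3. Of these genes, 4 of 15 were listed at P28 (26.7%, interval 10.9% to 52.0%), namely Men1, Rbbp5, Setd1a and Wdr5. At P28.5 it was 2 of 15 (13.3%, interval 3.74% to 37.9%), Rbbp5 and Setd1a, and the background lay inside both intervals. All of these are among the 8 on the plus strand. The zinc finger genes with symbols of Zfp and a number, a comparison chosen after the members' values were seen, gave 77 of 397 at P28 (19.4%, interval 15.8% to 23.6%) and 58 of 397 at P28.5 (14.6%, interval 11.5% to 18.4%). Their intervals do not meet that of the members at either age, which is a description of these lists and not a test.

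Marker genes of cells that the suspension could hold were looked up as well. Of 8 Sertoli, 6 Leydig and 4 peritubular myoid cell markers, 0 were named at either age, 3 of the Sertoli markers being members. So few genes allow shares of up to 37.5%, 50% and 75.0%, above the 16.8% and 11.6% of all genes, so a difference from the background was not detectable. Of 6 markers of undifferentiated spermatogonia, 1 was listed at each age, and it was Foxo1. Of 10 spermatocyte markers, 2 were listed at P28 (20%, interval 5.67% to 51.0%), Sycp2 and Sycp3, and 4 at P28.5 (40.0%, interval 16.8% to 68.7%), Hormad1, Spo11, Syce2 and Sycp3. The background was 16.8% at P28, inside the interval, and 11.6% at P28.5, below it. With rows within 500 bp of the gene's own start, the counts were 1 at P28, Sycp3, and 4 at P28.5, against 13.2% and 11.3% of all genes. Membership of a list is not expression, and which cells carried the ARID2 at Foxo1 was not tested.

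Of the 171 members, 112 had an entry in the promoter table, which gave 1 window of 300 bases each, searched on both strands. The GC box GGGCGG was found in 71 of them (63.4%), beside 46.3% of 17492 promoters of protein-coding genes and 72.4% of the 2094 promoters of genes with an own start at P28.5. The CCAAT box was found in 55 (49.1%), beside 39.2% and 45.9%. The ETS motif CCGGAAG was found in 2 (1.79%), beside 11.9% and 23.5%. Against all promoters, the members' shares for TATAAA were 8.04% beside 13.3%, for the E-box CACGTG 10.7% beside 7.91%, and for the CRE TGACGTCA 1.79% beside 2.33%. The forkhead motif TGTTTAC was found in 2 (1.79%) beside 2.93%, and the homeodomain core TAATTA in 4 (3.57%) beside 4.69%. Among 9 promoters of members with an own start at either age, GGGCGG was in 7, CCAAT in 4, and CCGGAAG in 1. A match is a run of letters and not a bound site.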

How the data were processed

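ARID2 CUT&RUN libraries of P28 and P28.5 spermatogenic cells were aligned to mm10 by the authors with Bowtie2, SAMtools and deepTools. The deposited lists hold the positions and gene symbols of cluster-1, made from averaged replicates, so neither depth nor replicate spread can be read from them. They are given as TSSs. Rows of members that match an annotated transcript end match its lower-coordinate end, which on the minus strand is the 3′ end. The paper reports mapped reads by library, and the signal tracks were not among the files given. The BRG1 and control libraries have no list and were not analysed. Positions were compared with transcript ends of RefSeq for GRCm38.p6. A gene was listed when a row carried its symbol or a synonym belonging to 1 gene, which matched 99.8% of the names at each age. Intervals on shares are Wilson intervals at 95%; where nothing was counted, 3 counts set the limit. The work used matplotlib 3.10.9, scipy 1.17.1 and numpy 2.4.6 under Python 3.11.15, and the counting was tested on simulated lists.

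The members and lists were chosen with earlier results of these data known. Lists were Hox cofactors, other homeobox genes, Polycomb genes, trithorax and COMPASS genes, and markers of Sertoli, Leydig and peritubular myoid cells, undifferentiated spermatogonia and spermatocytes. Genes named are the members with a row at either age, those with another gene's position within 2000 bp of a 5′ end, X-linked members, and a fixed set of unlisted members known from testis or dividing cells; of the lists, the first listed gene and the genes of counts of 5 or fewer are named, and some genes under these rules are left unnamed. Neighbouring paralogues, the printed promoters marked so and the Zfp comparison were chosen after the values were seen. Alternatives were other ways to count a gene (any position within 2000 or 500 bp, own rows within 2000 bp), plus-strand genes alone, symbols as written, and members without Foxred1 and Foxred2 or without X-linked genes. Own rows within 500 bp as an alternative for the shares, and a CpG ratio over 2000 bp, were added after seeing the data. The count of members with an own row within 500 bp, as a description of where listed rows lay, was planned.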

Additional observations from a re-analysis of the deposited data

How the results depend on the processing

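No paired analysis was possible because each list was made from averaged replicates, and for the same reason no replicate could be left out. The share of members listed at each age stayed under that of all protein-coding genes under every alternative run. At P28 it ranged from 5.85% to 13.8%, and the lowest value, with own rows within 500 bp, an alternative chosen after seeing the data, was outside the interval of the main value. At P28.5 it ranged from 2.92% to 5.75%. The number of members at both ages, 1 as reported, was 4 with positions of any name within 2000 bp of the 5′ ends and 3 with any position within 500 bp, because Foxh1 and Foxred1, and at 2000 bp Foxa3, are then counted through a neighbour. The number at P28 alone, 16 as reported, was 9 with any position within 500 bp and 9 with own rows within 500 bp, since rows away from the start then drop out. Among 176 family shares under the alternatives, 169 stayed within the interval of the main value and 7 did not. The 7 were those of Gata and Sox at P28, which were 0 where the row of Gata6 or Sox18 no longer counted. At P28.5 only 1 of the 11 families had a listed gene. Shares that were 0 before and after could hardly leave an interval that starts at 0, so the 169 are no measure of stability. With the CpG ratio taken over 2000 bp on either side, the share of plus-strand members in the highest quintile was 17.8% at P28 and 11.1% at P28.5, as against 11.1% and 18.5%, so the order of the ages is not stable. The lists give no signal value, so a member just outside cluster-1 cannot be told from one with no ARID2, and families of 6 to 18 genes leave wide intervals.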
